A study of Mus musculus with 18 samples.

Results

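The E2F genes E2f1 to E2f8 encode the transcription factors that couple the cell cycle machinery to gene expression. They were picked from the count table by symbol, and all 8 members were found among its 45706 genes. The family was singled out because of E2f2, whose level at 24 h was above that at 0 h in each of the Hmga2 KO clones but not in wt. The E2f2 values at 24 h are therefore described without a test, and the other 7 members were tested.

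RNA was sequenced from mouse induced pluripotent stem cells (iPSCs) that were Hmga2 wt, KO#1 or KO#2, before (0 h) and after 24 h of the induction of epiblast-like cells (EpiLCs), with 3 biological replicates in each of 6 groups and 18 libraries in all. Hmga2 is an architectural chromatin protein. The study asked how its loss affects the exit from the naive state. Cells of 0 h were iPSCs grown on mitotically inactivated fibroblast feeders with leukaemia inhibitory factor (LIF), the MEK inhibitor PD0325901 and the GSK3 inhibitor CHIR-99021. For EpiLCs, cells were plated without feeders on Geltrex, and the medium held bFGF and Activin A. The label of every library names the treatment as induction into EpiLCs. All wt libraries carry the same clone name, wt iPSC #1, so differences between wt and KO cells cannot be told apart from differences between single clones.

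E2F factors bind DNA as dimers with DP proteins and are held in check by the pocket proteins pRb, p107 and p130. In most cells, cyclin-dependent kinases phosphorylate the pocket proteins and release the activators E2f1, E2f2 and E2f3 onto genes of the G1/S transition and DNA synthesis. Pluripotent stem cells divide rapidly and spend much of their cycle in S phase. E2f4 and E2f5 act with p107 and p130 as repressors, E2f6 works without pocket proteins in a Polycomb complex, and E2f7 and E2f8 are atypical repressors that bind DNA without DP.

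Promoter sequences are shown for E2f2, E2f8 and E2f3, the members with the largest rises between 24 h and 0 h in a KO clone among those with a window and one of the words searched near the start. RefSeq windows of GRCm38.p6, from 250 bases before to 50 after a transcript start, existed for 6 of the 8 members. The E2F words TTTCCCGC, TTTCGCGC, TTTGCCGC and TTTGGCGC and the cell cycle genes homology region (CHR) word TTTGAA, to which the MuvB complex binds, were searched on both strands. Capitals mark a match, in the gene's orientation 5′ to 3′. The windows are chr4:136172024-136172323 on the plus strand for E2f2, chr7:48881547-48881846 on the minus strand for E2f8 and chr13:29986014-29986313 on the minus strand for E2f3.
E2f2: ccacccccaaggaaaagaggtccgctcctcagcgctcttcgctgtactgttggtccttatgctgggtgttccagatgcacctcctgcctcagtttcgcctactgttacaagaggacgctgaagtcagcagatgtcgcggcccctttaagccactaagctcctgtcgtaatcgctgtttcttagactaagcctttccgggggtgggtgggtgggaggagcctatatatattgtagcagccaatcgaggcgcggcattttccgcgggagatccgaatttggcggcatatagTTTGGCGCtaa
E2f8: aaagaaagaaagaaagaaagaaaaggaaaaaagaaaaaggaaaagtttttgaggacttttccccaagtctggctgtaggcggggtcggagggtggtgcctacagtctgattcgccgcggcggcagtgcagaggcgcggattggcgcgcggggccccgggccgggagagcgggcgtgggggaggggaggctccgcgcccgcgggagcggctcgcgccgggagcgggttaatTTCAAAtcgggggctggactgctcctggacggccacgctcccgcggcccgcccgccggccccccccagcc
E2f3: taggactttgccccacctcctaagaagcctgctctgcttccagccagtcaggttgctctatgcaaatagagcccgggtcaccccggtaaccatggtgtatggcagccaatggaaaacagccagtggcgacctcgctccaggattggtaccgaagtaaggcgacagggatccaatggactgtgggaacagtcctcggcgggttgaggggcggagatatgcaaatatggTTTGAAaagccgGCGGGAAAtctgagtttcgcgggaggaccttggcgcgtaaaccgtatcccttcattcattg

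The E2f2 window held TTTGGCGC, with its first base at position 39 counted from the start. That RefSeq start, chr4:136172274, lies before the annotated gene start at chr4:136172394, and the window ends before the latter. The E2f8 window held the CHR word on the other strand at position -20. The E2f3 window held the CHR word at -23 and, 12 bases further on, TTTCCCGC on the other strand at -11. Across the family, an E2F word also lay in the E2f7 window at -198, the CHR word lay at -31 of another E2f2 start at chr4:136180782, and the E2f1 and E2f6 windows held none of these words. The E2f1 window surrounds a RefSeq start at chr2:154569426, inside the annotated gene, and not the gene's outermost start. An E2F word was present in 744 of 32851 such windows of all genes, or 2.26%, and the CHR word in 5878, or 17.9%. These matches describe letters in a window and say nothing of binding.

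Total counts ranged from 3466436 to 23872837 per library, with the lowest total in wt replicate 1 of 0 h. The share of counts on protein-coding genes lay between 41.3% and 84.7%. For KO#2 libraries the share was 76.3% to 79.1% at 0 h and 82.3% to 84.7% at 24 h, against 52.6% to 66.7% and 41.6% to 63.4% in wt cells. In KO#1 it was 62.0% to 77.4% and 41.3% to 63.1%, with overlap with KO#2 at 0 h. The slope of expression on GC content, in log2 units per 10 GC points, stood apart in the libraries labelled KO#2. It was -0.50 to -0.39 at 0 h and -0.53 to -0.34 at 24 h, against 0.14 to 0.78 and -0.18 to 0.30 in wt cells. In KO#1 the slope was 0.10 to 0.44 and -0.13 to 0.55. In wt cells, Hmga2 RNA stood at 13.3 to 22.3 CPM at 0 h and at 5.51 to 5.93 CPM at 24 h. Its log2 fold change there was -1.61 (SE 0.62, adjusted p = 0.0362 by edgeR). Hmga2 RNA differed from wt at 0 h by -1.71 on the log2 scale for KO#1 and by -1.90 for the libraries labelled KO#2 (adjusted p = 0.124 and 0.023 by edgeR). At 24 h the differences were -1.36 and -0.04 (adjusted p = 0.22 and 0.967), and among the libraries labelled KO#2 at 24 h, replicates 2 and 3 (3.02 and 3.47 CPM) lay below the wt range of 5.51 to 5.93 CPM and replicate 1 (10.4 CPM) above it. Of 10 naive markers, 8 fell in every line, and of 8 primed markers, 7 rose in every line. Against wt cells of 24 h, KO#1 had 5 naive markers higher and 4 primed markers lower. KO#2 had 6 naive markers higher and 2 primed markers lower. Of all genes, 9.84% in KO#1 and 37.3% in KO#2 were called there. At 0 h, 2 naive markers were higher and 1 lower in KO#1, and 2 higher and 3 lower in KO#2. Primed markers at 0 h were 1 higher and 2 lower in KO#1, and 1 higher and 3 lower in KO#2. The summed level of 8 fibroblast markers at 0 h was 110 to 390 CPM for wt cells, 183 to 514 for KO#1 and 331 to 897 for KO#2, and at 24 h it was 19.0 to 34.5, 38.7 to 51.8 and 70.9 to 219 CPM, with Dcn at 0 in all wt libraries of 0 h. The part of feeder RNA, GC content and the protein-coding share in the E2F values was not tested. In bulk RNA a gene's level cannot separate a change in the number of cells that express it from a change in the RNA per cell.

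E2f2, an activator of S phase entry, was at higher levels at 24 h than at 0 h in both KO clones. The gene (ENSMUSG00000018983) lies at chr4:136172394-136196057 of GRCm38 on the plus strand. Values are CPM, counts scaled to the library total times its TMM factor. In wt cells E2f2 stood at 15.1, 6.15 and 5.25 CPM at 0 h and at 5.57, 4.61 and 5.49 CPM at 24 h. The time points overlapped in wt cells, and the single high value came from the library with the lowest total, where it rested on 46 counts. In KO#1 it stood at 4.69, 6.47 and 2.45 CPM at 0 h and at 12.2, 14.9 and 19.4 CPM at 24 h. The libraries labelled KO#2 held 2.07, 2.25 and 3.26 CPM at 0 h and 15.4, 8.16 and 6.08 CPM at 24 h. Both clones were higher at 24 h in every library, without overlap between the time points. Replicate 1 of KO#2 at 24 h was the highest of its group, and the lowest of that group, 6.08 CPM, lay just above the highest wt value of 24 h, 5.57 CPM. Across the 18 libraries these levels rested on 31 to 312 counts.

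The log2 fold change of E2f2 from 0 h to 24 h was -0.67 (SE 0.43) for wt cells, 1.83 (SE 0.44) for KO#1 and 1.96 (SE 0.43) for KO#2, which corresponds to 3.56-fold and 3.90-fold higher levels in the clones. Of the 16619 genes tested, 7.59% had a higher log2 fold change than E2f2 in KO#1, 3.65% in KO#2 and 67.9% in wt cells. Without wt replicate 1 of 0 h, the wt value was -0.16. Without KO#2 replicate 1 of 24 h, the KO#2 value was 1.50. Against wt cells, E2f2 differed by -0.94 (SE 0.45) in KO#1 and -1.73 (SE 0.44) in KO#2 at 0 h, and by 1.57 (SE 0.42) and 0.91 (SE 0.41) at 24 h, so both clones stood below wt at 0 h and above it at 24 h. The difference for KO#1 at 0 h, where its libraries overlapped with wt, was -0.38 without wt replicate 1 of 0 h, and that for KO#2 at 24 h was 0.45 without KO#2 replicate 1 of 24 h. With offsets corrected for GC content, the 0 h difference for KO#2 was -1.06.

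**Figure D1:**
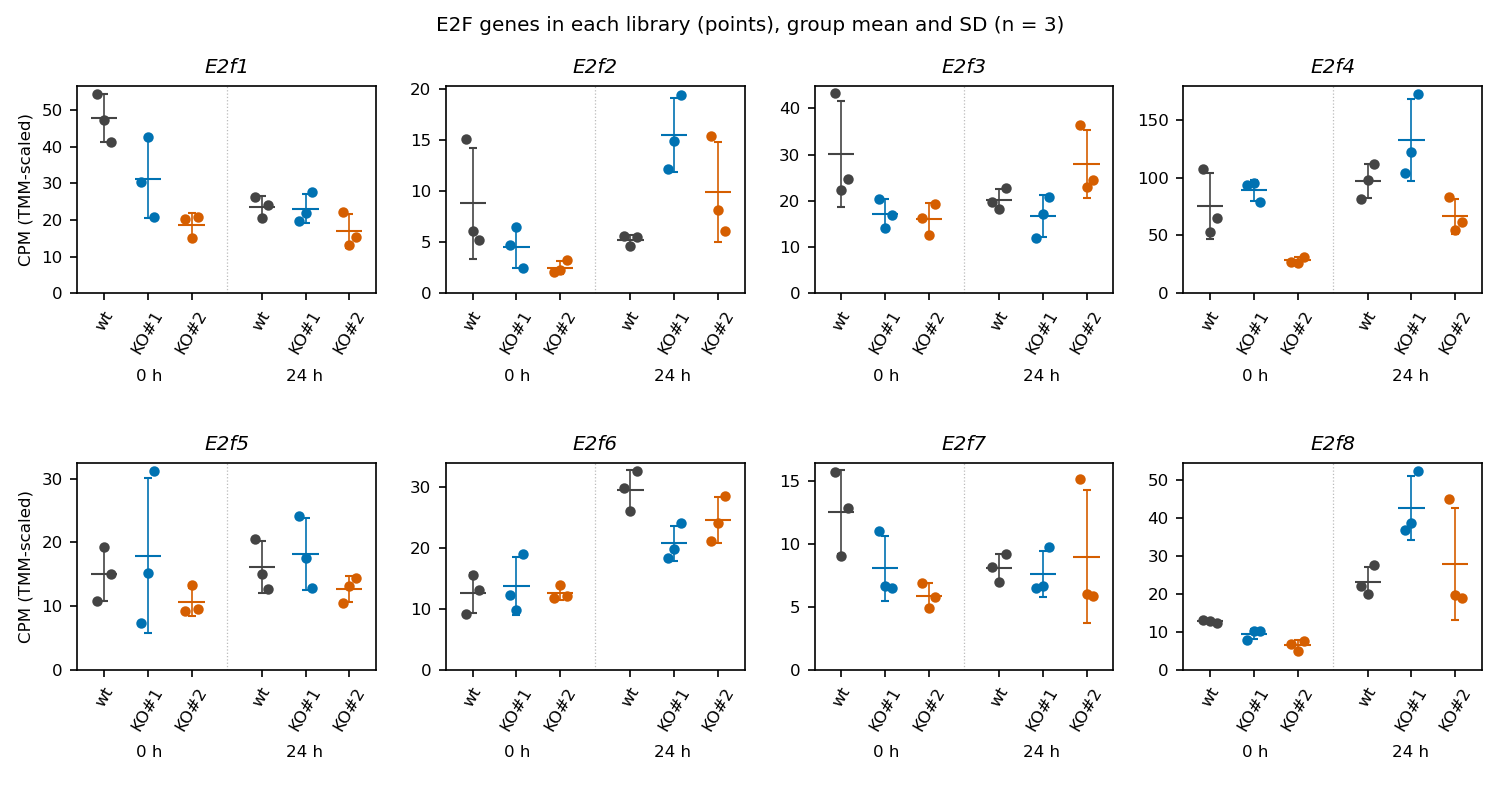
Level of each E2F gene in every library, in CPM scaled by TMM factors on linear axes, for wt (grey), KO#1 (blue) and KO#2 (orange) at 0 h and 24 h. Points are libraries, and bars are the group mean and SD of 3 libraries. E2f2 at 24 h lies between 6.08 and 19.4 CPM in the KO clones and between 4.61 and 5.57 CPM in wt cells.

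E2f8, an atypical repressor that is itself a target of E2F activators, rose in all 3 lines. It lies at chr7:48866429-48881596 on the minus strand. In wt cells it stood at 13.1, 12.8 and 12.3 CPM at 0 h and at 22.2, 20.0 and 27.5 CPM at 24 h. In KO#1 it stood at 7.81, 10.2 and 10.3 CPM at 0 h and at 36.7, 38.6 and 52.2 CPM at 24 h. For KO#2 the values were 6.82, 5.03 and 7.72 CPM at 0 h and 44.9, 19.6 and 19.0 CPM at 24 h. All libraries of 24 h were above those of 0 h in each line, and KO#1 was above wt at 24 h without overlap, whereas KO#2 overlapped with wt. The log2 fold change was 0.87 (SE 0.30, adjusted p = 0.0227) in wt cells, 2.17 (SE 0.31, adjusted p = 6.13e-05) in KO#1 and 2.09 (SE 0.30, adjusted p = 0.000105) in KO#2. The wt call was lost without any one of the 3 wt libraries of 0 h or wt replicate 3 of 24 h (log2 fold change 0.68 to 0.94 over the 6 fits, adjusted p up to 0.0971). E2f8 shares 610 exonic bases with the antisense gene Gm2788, which had 0 to 5 counts per library.

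E2f7, the other atypical repressor, had no call between the time points. Its levels ranged from 9.08 to 15.7 CPM at 0 h and from 7.01 to 9.20 CPM at 24 h in wt cells, 6.53 to 11.1 and 6.54 to 9.76 CPM in KO#1, and 4.90 to 6.94 and 5.86 to 15.1 CPM in KO#2. The highest KO#2 value came again from replicate 1 of 24 h, which was also the highest of its group for E2f1, E2f2, E2f3, E2f4 and E2f8. Without that library the log2 fold change of E2f7 in KO#2 was 0.02 in place of 0.61.

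E2f1, the activator best known for inducing both S phase and apoptosis, fell in wt cells. It lies at chr2:154559407-154569892 on the minus strand. It stood at 54.4, 47.2 and 41.3 CPM in wt cells at 0 h and at 26.3, 20.4 and 24.0 CPM at 24 h. In KO#1 it stood at 30.3, 42.6 and 20.9 CPM at 0 h and at 19.8, 22.0 and 27.6 CPM at 24 h. KO#2 values were 20.3, 15.0 and 20.8 CPM at 0 h and 22.2, 13.3 and 15.3 CPM at 24 h. Only in wt cells did the time points not overlap. The log2 fold change was -1.01 (SE 0.26, adjusted p = 0.00433) in wt cells, -0.42 (SE 0.26, adjusted p = 0.204) in KO#1 and -0.14 (SE 0.26, adjusted p = 0.733) in KO#2. The differences between these responses are given further on, and neither passed the test.

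E2f3, the third activator, lies at chr13:29906575-29986063 on the minus strand. Its levels were 43.3, 22.3 and 24.7 CPM in wt cells at 0 h and 19.8, 18.2 and 22.8 CPM at 24 h. The KO#2 libraries had 16.4, 12.6 and 19.4 CPM at 0 h and 36.4, 23.1 and 24.4 CPM at 24 h. The KO#2 time points did not overlap and the log2 fold change there was 0.79 (SE 0.28, adjusted p = 0.0455). This call was lost with genes limited to at least 10 counts in every library, and without KO#2 replicate 1 or 2 of 0 h or replicate 1 or 3 of 24 h (log2 fold change 0.56 to 0.95 over the 6 fits, adjusted p up to 0.177). In wt cells the log2 fold change was -0.55 (SE 0.29, adjusted p = 0.118), and in KO#1, at 14.2 to 20.4 CPM at 0 h and 11.9 to 20.9 CPM at 24 h, it was -0.05 (SE 0.29, adjusted p = 0.91).

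E2f4, the repressor of quiescent and early G1 cells, lies at chr8:105297663-105305370 on the plus strand. It rose in the libraries labelled KO#2, from 27.5, 26.0 and 31.8 CPM at 0 h to 83.6, 54.6 and 62.0 CPM at 24 h (log2 fold change 1.23, SE 0.27, adjusted p = 0.00258). It stood at 107, 53.1 and 65.1 CPM in wt cells at 0 h and at 81.6, 97.8 and 111 CPM at 24 h (0.37, SE 0.26, adjusted p = 0.245). In KO#1 it stood at 93.5, 94.9 and 78.5 CPM at 0 h and at 104, 122 and 172 CPM at 24 h, without overlap but short of the threshold (0.57, SE 0.26, adjusted p = 0.0876). With GC-corrected offsets E2f4 was also called higher in wt cells and KO#1 (0.70 and 0.65). E2f5, the other partner of p130, had no call and ranged from 7.29 to 31.3 CPM over all libraries, with both extremes among the KO#1 libraries of 0 h.

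E2f6, which represses germline genes in proliferating cells, rose in wt cells and in the libraries labelled KO#2. It lies at chr12:16810963-16839742 on the plus strand. In wt cells it stood at 9.18, 15.6 and 13.2 CPM at 0 h and at 29.9, 26.1 and 32.7 CPM at 24 h (log2 fold change 1.20, SE 0.25, adjusted p = 0.000926). KO#2 libraries had 11.8, 13.9 and 12.2 CPM at 0 h and 21.2, 24.2 and 28.6 CPM at 24 h (0.97, SE 0.25, adjusted p = 0.00785). In KO#1 it stood at 12.4, 9.81 and 19.1 CPM at 0 h and at 18.4, 19.9 and 24.1 CPM at 24 h, with overlap (0.58, SE 0.25, adjusted p = 0.0729). This rise in KO#1 was called by DESeq2 and with the replicate block.

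**Figure D2:**
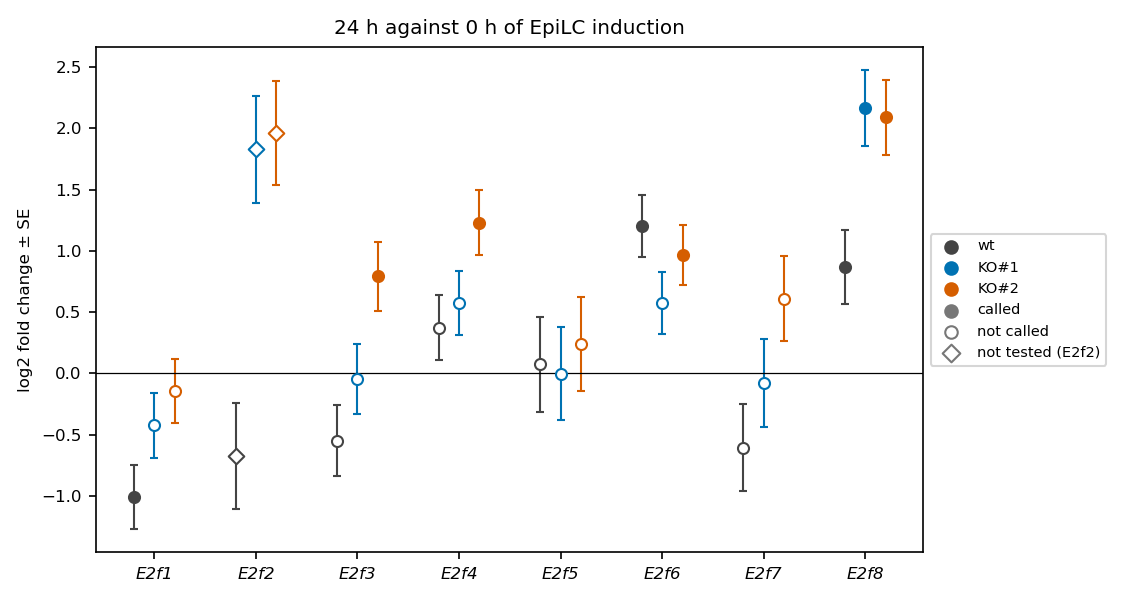
Log2 fold change between 24 h and 0 h for each E2F gene in wt (grey), KO#1 (blue) and KO#2 (orange). Points are estimates of the quasi-likelihood model, bars are SE, filled points passed an adjusted p of 0.05 and E2f2 (diamonds) was not tested. E2f2 and E2f8 have the highest values in both clones, 1.83 and 2.17 in KO#1 and 1.96 and 2.09 in KO#2.

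Counted over the 7 members other than E2f2, 3 were called between the time points in wt cells (E2f6 and E2f8 higher, E2f1 lower), against 50.7% of all 16619 genes tested in either direction, 26.0% higher and 24.7% lower. In KO#1, 1 was called (E2f8, higher), against 40.8% of all genes in either direction and 20.1% higher. In the libraries labelled KO#2, 4 were called (E2f3, E2f4, E2f6 and E2f8, all higher), against 26.0% of all genes in either direction and 12.7% higher. Time points did not overlap for 3 members in wt cells, 2 of the 7 for KO#1 and 4 for KO#2, against 57.9%, 44.5% and 44.7% of all genes. With library sizes alone, E2f6 and E2f8 lost their calls in wt cells, as did E2f3 and E2f6 in KO#2. All genes tested had medians of 0.03 (wt), 0.00 (KO#1) and -0.03 (KO#2) on the log2 scale.

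Between genotypes at 0 h, 5 of the 7 members were lower in the libraries labelled KO#2 than in wt cells, against 38.1% of all genes called in either direction and 16.6% lower. E2f1 differed by -1.35 (SE 0.27, adjusted p = 0.00121), E2f4 by -1.39 (SE 0.27, adjusted p = 0.00105) and E2f7 by -1.07 (SE 0.36, adjusted p = 0.0264). E2f8 differed by -0.97 (SE 0.30, adjusted p = 0.0201) and E2f3 by -0.88 (SE 0.29, adjusted p = 0.0238), whereas E2f6 was at -0.03 and E2f5 at -0.52 without a call. For these 5 members no KO#2 library reached the lowest wt library, against 52.9% of all genes without overlap. With GC-corrected offsets the differences of E2f1 and E2f4 were -0.62 and -0.77, and both were still called, whereas with library sizes alone only E2f4 was called (-0.89). The E2f3 call was lost without wt replicate 1 or KO#2 replicate 1 or 2 (-1.05 to -0.57 over the 6 fits, adjusted p up to 0.128). The E2f7 call was lost without wt replicate 1 or 3 or KO#2 replicate 2 or 3 (-1.26 to -0.93, adjusted p up to 0.0871), and the E2f8 call without KO#2 replicate 2 (-1.10 to -0.81, adjusted p up to 0.0807). Of the 8 fibroblast markers, 4 were higher in these KO#2 libraries.

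In KO#1 at 0 h, 0 of the 7 members were called by edgeR or DESeq2, against 6.67% of all genes, and 2 had an unadjusted p under 0.05 (E2f1 at -0.61 and E2f3 at -0.78). At 24 h, 0 members were called in KO#1 by edgeR, against 9.84% of all genes. E2f8 was the nearest at 0.87 (SE 0.29, adjusted p = 0.0676), the single member with an unadjusted p under 0.05, and DESeq2 called that 1 member. In the libraries labelled KO#2 at 24 h, 0 members were called by either tool, against 37.3% of all genes, and 0 had an unadjusted p under 0.05. E2f2 apart, the values there ran from -0.54 for E2f4 to 0.46 for E2f3. Of all 16619 genes, 3299 had an unadjusted p under 0.05 in KO#1 at 0 h, 3713 in KO#1 at 24 h and 7827 in KO#2 at 24 h. DESeq2 called 1515, 2131 and 6733 of the 16619. Groups did not overlap for 2 members in KO#1 at 0 h, 2 in KO#1 at 24 h and 1 in KO#2 at 24 h, against 20.5%, 29.0% and 52.1% of all genes. At 24 h, 6 of the 8 fibroblast markers were higher in KO#2 than in wt cells.

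**Figure D3:**
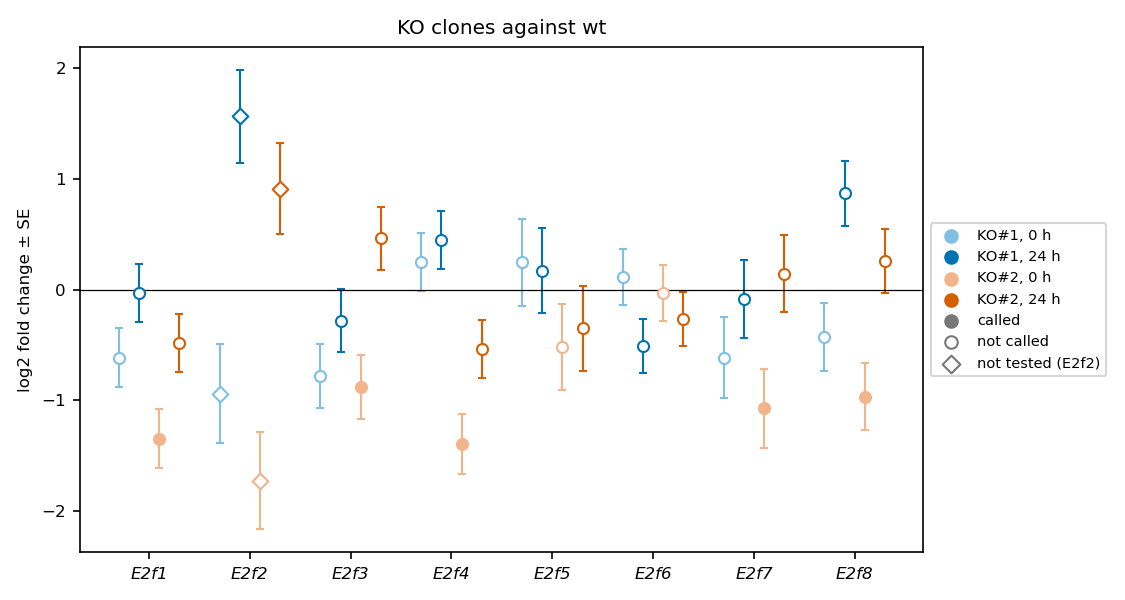
Log2 fold change of each KO clone against wt cells at 0 h (pale) and 24 h (dark), with SE bars. Filled points passed an adjusted p of 0.05 and E2f2 (diamonds) was not tested. E2f1, E2f3, E2f4, E2f7 and E2f8 are filled for KO#2 at 0 h, between -1.39 and -0.88. E2f2 and E2f8 both lie below 0 at 0 h and above 0 at 24 h in both clones, though E2f8 in KO#2 at 24 h is at -0.26 without replicate 1.

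Whether the 24 h response differed from that of wt cells was tested as an interaction. For E2f2 the difference was 2.50 (SE 0.61) for KO#1 and 2.64 (SE 0.60) for KO#2, given as a description. Leaving out each library in turn, it stayed between 1.98 and 2.85 in KO#1 and between 2.11 and 2.92 in KO#2, and with GC-corrected offsets it was 2.25 in both. For the other 7 members, 0 interactions were called by edgeR in KO#1, against 0.391% of all genes, 1 had an unadjusted p under 0.05 and DESeq2 called 0. In KO#2, 0 were called by edgeR, against 1.47% of all genes, whereas 5 had an unadjusted p under 0.05 and DESeq2 called 2, E2f3 and E2f8. Of all 16619 genes, 1679 in KO#1 and 3921 in KO#2 had an unadjusted p under 0.05, and DESeq2 called 276 and 1409. E2f8 differed by 1.30 (SE 0.42, adjusted p = 0.232) in KO#1 and 1.22 (SE 0.42, adjusted p = 0.114) in KO#2, where it was 0.70 without KO#2 replicate 1 of 24 h, and E2f3 by 0.50 (SE 0.41, adjusted p = 0.744) and 1.34 (SE 0.40, adjusted p = 0.0841). E2f1 differed by 0.58 (SE 0.37, adjusted p = 0.649) and 0.87 (SE 0.37, adjusted p = 0.174). Comparisons of both clones use the same wt libraries.

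Levels of different genes were compared per kilobase of exon, as the group mean of CPM per kb. E2f4 was the most abundant member in all 6 groups without overlap with the next, at 30.7 in wt cells, 36.3 in KO#1 and 11.6 in KO#2 at 0 h and at 39.5, 54.0 and 27.2 at 24 h. In wt cells at 0 h, E2f1 followed at 15.1 and E2f5 at 8.47, without overlap. E2f5 and E2f3 (5.54) overlapped, E2f3 and E2f8 (2.34) did not, and E2f8, E2f6 (2.23), E2f2 (1.81) and E2f7 (1.39) each overlapped with the next. In wt cells at 24 h the order was E2f5 (9.04), E2f1 (7.48), E2f6 (5.22), E2f8 (4.27), E2f3 (3.73), E2f2 (1.07) and E2f7 (0.901). There, E2f1 was clear of E2f6 and E2f3 of E2f2, and the other neighbours overlapped. E2f2 was in rank 7 or 8 of the 8 members at 0 h in every line and in rank 7 for wt cells at 24 h. In KO#1 at 24 h it reached 3.18, between E2f6 (3.67) and E2f3 (3.07), with overlap on both sides, and in KO#2 at 24 h 2.02, above E2f7 (1.00) with overlap and clear of E2f6 (4.35).

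As a share of the summed per-kilobase level of the family, the activators E2f1, E2f2 and E2f3 made up 33.2% ± 1.64 (SD, n = 3) at 0 h and 17.3% ± 1.79 at 24 h for wt cells. The shares were 21.4% ± 5.11 and 15.0% ± 0.792 in KO#1, and 30.1% ± 3.98 and 21.6% ± 2.10 in KO#2. Within them, the share of E2f2 alone was 2.54% ± 1.00 and 1.50% ± 0.150 in wt cells, 1.41% ± 0.592 and 3.50% ± 0.245 in KO#1, and 1.65% ± 0.313 and 3.42% ± 1.07 in KO#2. In KO#1 the lowest E2f2 share at 24 h, 3.22%, was above the highest at 0 h, 1.92%, and in KO#2 the corresponding values were 2.34% and 2.00%. The atypical repressors E2f7 and E2f8 together moved from 5.61% ± 0.621 to 7.23% ± 0.668 in wt cells, for KO#1 from 4.04% ± 0.276 to 9.59% ± 0.253, and for KO#2 from 5.93% ± 0.862 to 10.2% ± 3.37. E2f4 and E2f5 held the largest share throughout, between 56.7% and 71.3% on average. These shares rest on values of which those of E2f2 were used in its choice, and were not tested.

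Over the 18 libraries, the log2 CPM of E2f2 went with that of E2f8 (Pearson r = 0.81) and E2f4 (r = 0.73) more than with that of E2f1 (r = 0.26) or E2f5 (r = 0.02). Taken as deviations from group means, the values were 0.53 for E2f8, 0.78 for E2f4 and 0.81 for E2f1. Each point is 1 library, so the values of a pair of genes carry the depth and composition of the same library. Deviations from group means of E2f2 and E2f4 also went with the GC slope of the library (r = 0.69 and 0.89 over the 18 libraries), and its part in the correlations was not tested. These correlations are descriptions of libraries in 6 groups and carry no test.

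**Figure D4:**
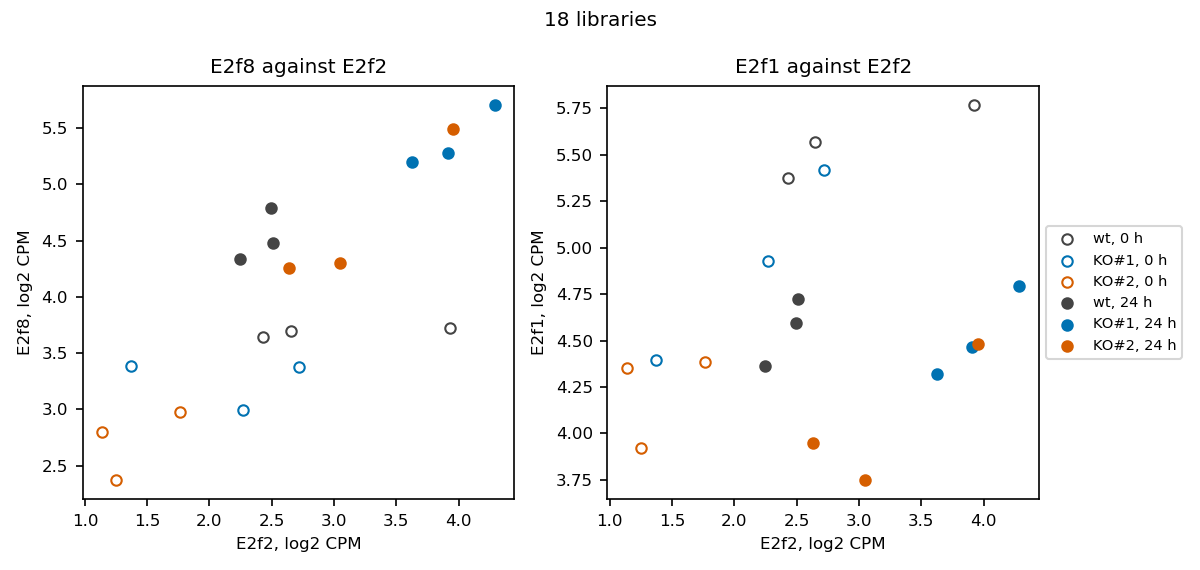
Log2 CPM of E2f8 (left) and E2f1 (right) against that of E2f2 in 18 libraries, open at 0 h and filled at 24 h, for wt (grey), KO#1 (blue) and KO#2 (orange). E2f8 follows E2f2 over the groups (r = 0.81), with the KO#1 libraries of 24 h near the top for both, while E2f1 is highest in wt libraries of 0 h, up to 54.4 CPM (r = 0.26).

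Among 10707 other genes with an average log2 CPM of at least 2, the 5 whose profile over the 18 libraries was most like that of E2f2 were Ano8 (r = 0.90), Lasp1 (r = 0.88), Spire2 (r = 0.86), Ppp1r18 (r = 0.85) and Ehmt2 (r = 0.85). As deviations from group means, the values were 0.82, 0.71, 0.62, 0.86 and 0.80, so the likeness also lay among libraries of the same group. The part of the GC slope in it was not tested. Ano8, a protein of membrane contact sites, stood at 7.11 ± 2.64 CPM at 0 h and 4.26 ± 0.693 CPM at 24 h for wt cells (SD, n = 3), and at 4.66 ± 0.925 and 8.74 ± 3.74 in KO#1, and at 2.93 ± 0.846 and 5.20 ± 1.01 in KO#2. In wt cells the group means of 0 h and 24 h were 15.5 and 6.47 CPM for Spire2, 197 and 183 for Lasp1, 15.5 and 15.8 for Ppp1r18, and 147 and 144 for Ehmt2. In KO#1 they were 10.6 and 31.8, 137 and 262, 14.0 and 23.3, and 103 and 161 CPM, and in KO#2 5.00 and 15.1, 110 and 181, 8.02 and 14.1, and 68.8 and 156 CPM. By Spearman correlation, 3 of these 5 remained among the first 5.

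The DP partners, which E2f1 to E2f6 need for DNA binding, rose with induction in wt cells and in the libraries labelled KO#2, 2 of 2 genes in each, against 26.0% and 12.7% of all genes higher. Tfdp1 rose by 0.88 (SE 0.26, adjusted p = 0.00847) and Tfdp2 by 1.49 (SE 0.23, adjusted p = 7.1e-05) in wt cells, and by 1.35 (SE 0.26, adjusted p = 0.00105) and 0.79 (SE 0.23, adjusted p = 0.0162) in KO#2. In KO#1 the values were 0.54 and 0.38, with adjusted p of 0.0948 and 0.194, and DESeq2 called 0 of the 2. Tfdp2 was lower in KO#1 than in wt cells at 24 h (-1.02, SE 0.23, adjusted p = 0.00714), a call lost with library sizes alone (-1.04, adjusted p = 0.0624). In KO#2 at 0 h, Tfdp1 was lower than in wt cells (-1.01) and Tfdp2 higher (0.89). Of these calls, that of Tfdp1 was lost with library sizes alone (-0.55) and that of Tfdp2 with GC-corrected offsets (0.50). Between the time points, the KO#2 count was 1 without replicate 1 or 2 of 0 h or replicate 3 of 24 h, and with library sizes alone it was 1 in wt cells and 1 in KO#2. The KO#1 count of 0 was 1 without replicate 3 of 0 h, and 1 with GC-corrected offsets and the replicate block.

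Of the 3 pocket proteins, the inhibitors of E2F activity, Rbl2, which encodes p130, fell in wt cells (-1.16, SE 0.33, adjusted p = 0.00692) and in KO#2 (-0.85, SE 0.30, adjusted p = 0.041). Rbl1, which encodes p107, fell in KO#2 (-0.69, SE 0.21, adjusted p = 0.0246). The shares of all genes called were 50.7% in wt cells and 26.0% for KO#2. The KO#2 count of 2 dropped to 0 without replicate 1 or 3 of either time point, to 1 without replicate 2 of 0 h, and to 0 with library sizes alone. In KO#1, 0 of the 3 were called by edgeR or DESeq2, and 0 had an unadjusted p under 0.05. Of all 16619 genes, edgeR called 40.8% there, DESeq2 called 7396 and 8317 had an unadjusted p under 0.05. With library sizes alone 2 of the 3 were called lower in KO#1 and 2 in wt cells. Against wt cells, 3 of the 3 were higher in KO#2 at 0 h and 2 at 24 h, beside 38.1% and 37.3% of all genes called. Rb1 was higher at 0 h (1.77, adjusted p = 0.0012) and 24 h (1.72, adjusted p = 0.000912), and so was Rbl2 (1.19, adjusted p = 0.00735, and 1.49, adjusted p = 0.00144), while Rbl1 was higher at 0 h (0.62, adjusted p = 0.0325). With GC-corrected offsets, the 0 h calls of Rb1 (1.07) and Rbl1 (-0.03) were lost, and those of Rbl2 at both times and Rb1 at 24 h held. Rbl2 was also higher in KO#1 at 24 h (1.69, SE 0.32, adjusted p = 0.00179), where Rb1 stood at 1.07 (SE 0.34, adjusted p = 0.0545). That count of 1 was 2 with DESeq2, with DESeq2 size factors, with protein-coding factors, with no filter, with GC-corrected offsets, with only the groups compared and without KO#1 replicate 2 of 24 h.

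Of 40 genes of the G1/S transition and DNA synthesis that are known E2F targets, 29 rose and 0 fell in wt cells, 27 rose and 0 fell in KO#1, and 16 rose and 0 fell in the libraries labelled KO#2, where 26.0%, 20.1% and 12.7% of all genes were higher. In KO#2, 24 of the 40 were not called. The median log2 fold changes were 0.92, 0.90 and 0.68, against those near 0 for all genes. Cdc6, which loads the replicative helicase, rose by 1.74 (SE 0.30), 2.26 (SE 0.30) and 1.89 (SE 0.30), and Rrm1, a subunit of ribonucleotide reductase, by 1.81 (SE 0.28), 1.58 (SE 0.27) and 1.08 (SE 0.27). Msh6, of mismatch repair, rose by 1.65, 1.29 and 0.71, and Mcm10, a replication factor, by 1.32, 1.21 and 1.15. Leaving out each library, the counts ran from 18 to 30 in wt cells (lowest without replicate 1 or 3 of 0 h), 17 to 25 for KO#1 (lowest without replicate 1 of 0 h) and 6 to 16 for KO#2 (lowest without replicate 1 of 0 h or replicate 3 of 24 h). Without a composition factor, the counts fell to 7 rising and 1 falling in wt cells, 2 and 1 in KO#1 and 7 and 0 in KO#2.

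Between genotypes, the same targets were compared at each time point. In KO#1 at 24 h, 1 of 40 was called, Tk1, a thymidine kinase, at 0.84 (SE 0.25, adjusted p = 0.0379), against 9.84% of all genes. This call was lost without any wt library of 24 h, without KO#1 replicate 1 or 3, with GC-corrected offsets, with library sizes alone and with only the groups compared. At 0 h, 0 were called by edgeR or DESeq2, with 3 at an unadjusted p under 0.05. Of all 16619 genes, edgeR called 6.67% there, DESeq2 called 1515 and 3299 had an unadjusted p under 0.05. In KO#2 at 24 h, 0 were higher and 9 lower than in wt cells, with a median of -0.44 beside 0.20 for all genes, whereas with library sizes alone 16 were higher and 1 lower. Of all genes, 37.3% were called there in either direction, and 57.1% of those calls were higher. The count was 5 without wt replicate 2 or KO#2 replicate 1 or 2, and 14 with GC-corrected offsets. The lowest adjusted p values there were those of Dut, a dUTPase (-2.00, SE 0.27, adjusted p = 4.78e-05), and Tk1 (-1.09, SE 0.25, adjusted p = 0.00263). In KO#2 at 0 h, 3 were higher and 14 lower, against 38.1% of all genes called and 16.6% lower, whereas with library sizes alone 7 were higher and 1 lower. The total of 17 was 10 without KO#2 replicate 2, 11 without wt replicate 1 or KO#2 replicate 1, and 11 with GC-corrected offsets. The median of all genes differed between these scalings by 1.04 at 24 h and 0.44 at 0 h. The response of the targets differed from that of wt cells for 0 genes by edgeR in each clone, with 0 and 5 at an unadjusted p under 0.05 in KO#1 and KO#2 and 0 and 2 called by DESeq2. Of all 16619 genes, edgeR called 0.391% and 1.47%, DESeq2 called 276 and 1409, and 1679 and 3921 had an unadjusted p under 0.05.

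Of 18 genes of G2/M that the DREAM complex and FoxM1 control, 11 rose and 1 fell in wt cells and 11 rose in KO#1, against 26.0% and 20.1% of all genes higher. For KO#2, 2 of the 18 rose, a share near the 12.7% of all genes, and DESeq2 called 4, against 4925 of all 16619 genes. The median log2 fold changes were 0.96, 0.86 and 0.46. Cdc20, the activator of the anaphase-promoting complex, rose by 1.93 (SE 0.24), 1.75 (SE 0.24) and 1.40 (SE 0.23), and Bub1b, of the spindle checkpoint, by 0.91, 1.05 and 0.65. In KO#1 the count was 6 without replicate 1 of 0 h or of 24 h, and in KO#2 it was 1 without any one library. With library sizes alone, 4 rose and 1 fell in wt cells, 1 rose and 2 fell in KO#1 and 1 rose in KO#2. In KO#2 at 0 h, 7 were higher than in wt cells, among them Cenpe (1.24) and Mki67 (0.92), and 2 were lower, against 38.1% of all genes called, whereas 1 was called, lower, with GC-corrected offsets. That count of 9 was 3 without wt replicate 1, 4 without wt replicate 3 and 5 without KO#2 replicate 2. In KO#2 at 24 h, 6 were lower than in wt cells and 0 higher, among them Birc5 (-1.02) and Plk1 (-0.96), whereas with library sizes alone 9 were higher and 0 lower. Of all genes, 37.3% were called there in either direction, and 57.1% of those calls were higher. The count of 6 was 2 without wt replicate 3 and 3 without KO#2 replicate 1 or 2.

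**Figure D5:**
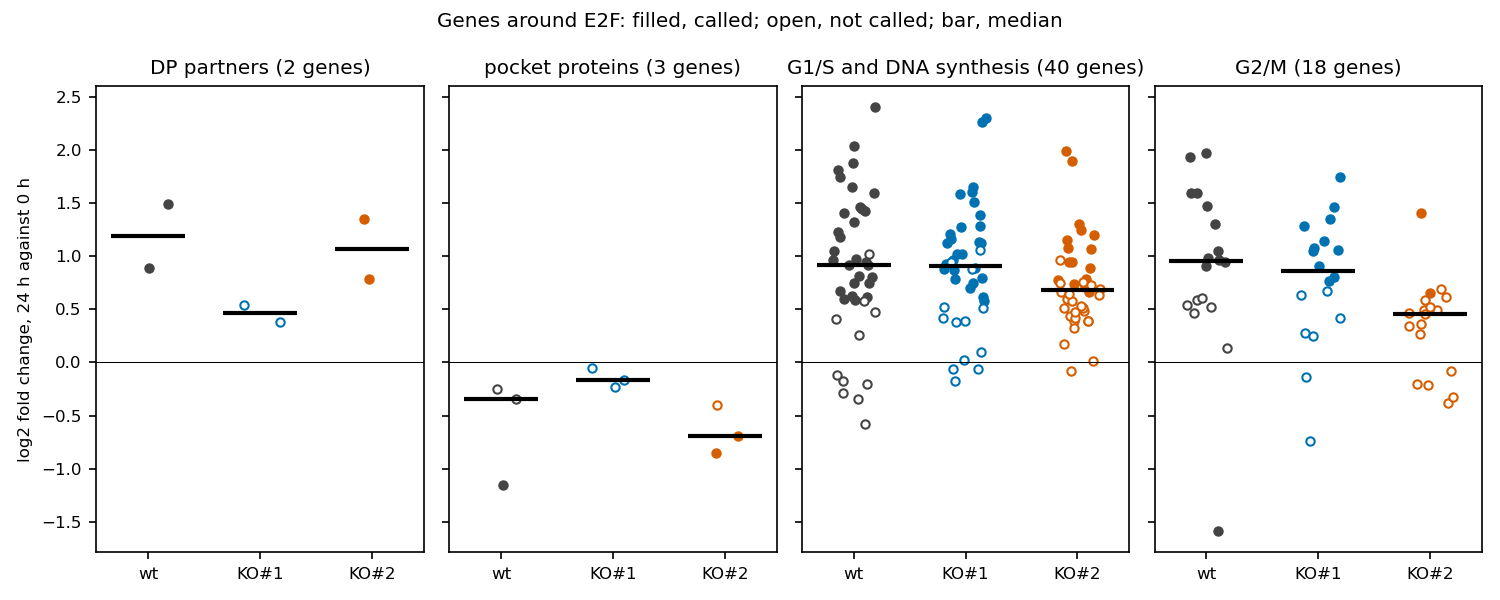
Log2 fold change between 24 h and 0 h of genes around E2F in wt (grey), KO#1 (blue) and KO#2 (orange). Each point is a gene, filled when called, and bars are medians over 2 DP partners, 3 pocket proteins, 40 G1/S genes and 18 G2/M genes. The G1/S medians lie at 0.92, 0.90 and 0.68, above 0 in each line.

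For the remaining lists, the shares of all genes called in either direction were 50.7% in wt cells, 40.8% for KO#1 and 26.0% for KO#2. DESeq2 called 7396 of all 16619 genes in KO#1 and 4925 in KO#2. An unadjusted p under 0.05 by edgeR was found for 8317 and 6295. Of 6 genes of the MuvB core and B-Myb, 1 rose and 2 fell in wt cells, with Mybl2, which encodes B-Myb, at -1.25 (SE 0.28, adjusted p = 0.00141), 1 rose and 1 fell in KO#1 (1 call in all without replicate 1 or 2 of 0 h or replicate 1 of 24 h), and 0 were called in KO#2, where 1 had an unadjusted p under 0.05 and DESeq2 called 1. Of 11 genes of the Polycomb complex PRC1.6, to which E2f6 belongs, 2 rose and 3 fell in wt cells, 1 rose and 4 fell in KO#1, and 3 rose in KO#2, shares near those of all genes. The KO#1 count of 5 was 3 without replicate 1 of 0 h, 1 without replicate 1 of 24 h and 2 without replicate 2 of 24 h, and the KO#2 count of 3 was 1 without replicate 1 or 3 of 0 h or replicate 3 of 24 h. Pcgf6, the subunit that defines this complex, rose by 1.06 (SE 0.23) in wt cells and 0.83 (SE 0.23) in KO#2. Of 4 germline genes that E2f6 is known to repress, 2 rose in wt cells, Slc25a31 at 2.22 (SE 0.85) and Tuba3a at 1.47 (SE 0.46), 1 rose in KO#2, Slc25a31 at 2.51 (SE 0.77), and 0 were called in KO#1, where 1 had an unadjusted p under 0.05 and DESeq2 called 1. Slc25a31 stood at 0 to 1.93 CPM in wt cells at 0 h, near the smallest detectable level. The wt count of 2 was 0 without replicate 3 of 0 h or with library sizes alone and 1 without replicate 1 of either time point or replicate 2 of 24 h, and the KO#2 count was 0 without replicate 1 or 3 of 0 h or replicate 2 of 24 h. Leaving out each library, the KO#1 count ran from 0 to 2.

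Of 15 G1 cyclins, their kinases and inhibitors, 6 rose and 6 fell in wt cells, 7 rose and 3 fell in KO#1, and 5 rose and 2 fell in KO#2, where 50.7%, 40.8% and 26.0% of all genes were called. The KO#2 count of 7 was 4 without replicate 1 of 0 h or replicate 3 of 24 h. Ccne1, which encodes cyclin E1, rose by 2.89 (SE 0.30), 2.25 (SE 0.29) and 2.35 (SE 0.29), and Cdkn1b, which encodes the inhibitor p27, had log2 fold changes of -3.34 (SE 0.23), -2.16 (SE 0.22) and -1.75 (SE 0.21). Of 8 apoptosis genes that E2f1 can induce, 3 rose and 2 fell in wt cells, 3 rose and 1 fell in KO#1, and 3 rose in KO#2, against the same shares of all genes. Pmaip1, which encodes Noxa, rose by 1.33, 1.27 and 1.49.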

How the data were processed

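RNA sequencing of 18 libraries in 6 groups (wt, KO#1 and KO#2 at 0 h and 24 h, 3 biological replicates each) was analysed. Groups came from the sample titles. The authors deposited counts, whole numbers of reads per gene for 45706 genes, without normalization. According to the methods, reads of stranded libraries were trimmed, cleared of ribosomal sequences and aligned to GRCm38 with STAR, and quantification tools named there are StringTie and Salmon, with DESeq2 as the test. The annotation release and the use of strand in counting are not given in the sources used here, and without strand reads of E2f8 and of its antisense gene cannot be told apart. The E2F genes, the pathway lists and the marker lists were chosen with earlier results of these data known. Columns of the study's own comparisons were not used.

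Gene positions and exon lengths came from GENCODE release M21, which holds 45143 of the gene identifiers, and promoter windows from RefSeq. In R 4.3.3, edgeR 4.0.16 was run on the counts of all libraries with a filter on low counts (filterByExpr, minimum 10, 16619 genes left), TMM factors and 1 quasi-likelihood model of 6 groups. Genes with a Benjamini-Hochberg adjusted p under 0.05 over all genes tested were called. SE values were derived from F, as absolute log2 fold change over its square root. Log2 CPM used a prior count of 2. All 8 members passed the filter. The smallest level taken as detectable, 3 counts, was 0.116 to 0.983 CPM. No pair of the 153 pairs of libraries was identical (0 found).

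One gene of the lists is not reported here. The text names the 8 members, Hmga2, DP partners, pocket proteins, up to 4 called genes of each other list with the smallest adjusted p in a comparison, and the 5 genes most like E2f2. Mcm10, Bub1b, Rrm1, Msh6 and Tk1 values are also given in comparisons outside that limit. Marker lists were naive (Dppa3, Klf4, Klf2, Nanog, Esrrb, Tbx3, Tfcp2l1, Prdm14, Zfp42, Nr0b1), primed (Fgf5, Otx2, Dnmt3a, Dnmt3b, Pou3f1, Sox3, Lef1, Zic2) and fibroblast (Col1a1, Col1a2, Col3a1, Postn, Dcn, Lox, Thy1, Acta2). Alternatives were DESeq2 1.42.0, its size factors in edgeR, library sizes alone, factors from protein-coding genes, no filter, only the groups compared, genes with 10 or more counts throughout, a replicate block, 0.01 as the adjusted p threshold, calls limited to changes of 1 or more on the log2 scale, and each library left out. Spearman correlation and a prior count of 0.5 were alternatives for likeness. Offsets corrected for GC content (16517 genes with a value, natural spline), with and without the block, were added after seeing the data. The steps were tested on simulated data. Figures were drawn with matplotlib 3.10.9 in Python 3.11.15.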

Additional observations from a re-analysis of the deposited data

Results flagged for a closer look

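Among 107 genes of the E2F pathway tested in each clone, 4 differences in the 24 h response between a KO clone and wt cells passed the interaction test of edgeR, 1 in KO#1 and 3 in KO#2, against 0.391% and 1.47% of all genes. The lists were chosen with earlier results of these data known. These 4 differences are therefore not an independent screen, and their adjusted p values serve as descriptions. Casp9, an initiator caspase, stood at 26.9 to 33.2 CPM in wt cells at 0 h and at 4.11 to 7.90 CPM at 24 h, and at 22.3 to 33.2 and 15.4 to 27.5 CPM in KO#1. Its response differed from wt by 1.87 (SE 0.39, adjusted p = 0.0457) in KO#1 and by 2.02 (SE 0.39, adjusted p = 0.0167) in the libraries labelled KO#2. The KO#1 call was lost without 10 of the 12 libraries in turn, all but wt replicate 3 and KO#1 replicate 1 of 24 h (1.63 to 2.18, adjusted p up to 0.13) and under 3 of 10 other settings, with its highest adjusted p, 0.352, at library sizes alone. The KO#2 call held under all 10 settings and was lost without 4 of the 12 libraries, wt replicate 3 and KO#2 replicate 2 of 0 h and wt replicates 1 and 2 of 24 h (adjusted p up to 0.0599).

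Cdkn1b, which encodes p27, fell less in the libraries labelled KO#2 than in wt cells, with a difference of 1.59 (SE 0.30, adjusted p = 0.013). It stood at 3.60 to 4.92 CPM in wt cells at 24 h and at 7.52 to 11.3 CPM in KO#2. The call held under all 10 settings and was lost without KO#2 replicate 2 of 0 h or wt replicate 2 of 24 h (adjusted p up to 0.0523). In KO#1 the difference was 1.18 (SE 0.30, adjusted p = 0.0952), and it was called by DESeq2 (adjusted p = 0.00778) and with GC-corrected offsets (adjusted p = 0.0451), over a range of 0.00778 to 0.647 in 10 settings.

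Cdkn1c, which encodes p57, had a response in the libraries labelled KO#2 that differed from wt by -3.36 (SE 0.75, adjusted p = 0.0324). It stood at 35.7 to 42.5 CPM in wt cells at 24 h and at 3.24 to 8.08 CPM in KO#2, and at 1.47 to 3.93 and 0.719 to 5.08 CPM at 0 h. The call was lost without 9 of the 12 libraries, all but wt replicate 1 and KO#2 replicate 3 of 0 h and KO#2 replicate 3 of 24 h (-3.81 to -2.71, adjusted p up to 0.117). In KO#1, at 4.70 to 11.2 CPM at 24 h and with 3, 1 and 9 counts at 0 h, the difference was -0.18 (SE 1.03, adjusted p = 0.983). Cdkn1c was lower than in wt cells at 24 h in both clones (-2.40 in KO#1 and -2.80 in KO#2). No explanation of these differences was tested.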

How the results depend on the processing

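Counts of E2F genes called, out of 7, depended on the processing as follows. Between 24 h and 0 h in KO#1 (1), the count was 2 with DESeq2 and with library sizes alone, 3 with GC-corrected offsets and 3 with these and the replicate block, and 1 to 2 leaving out each library. In KO#2 (4), it was 2 with library sizes alone and 2 with calls limited to log2 changes of 1 or more, and 3 to 4 leaving out each library. In wt cells (3), it was 4 with GC-corrected offsets, with E2f4 added, 2 at an adjusted p under 0.01 and with calls so limited, and 2 to 3 leaving out each library. With library sizes alone it was 3, with E2f3 and E2f7 called lower and E2f6 and E2f8 not called. For KO#2 against wt at 0 h (5), it was 1 with library sizes alone, 2 at an adjusted p under 0.01, 3 with calls so limited, and 2 to 5 leaving out each library (3 without wt replicate 1, 2 without KO#2 replicate 2). For KO#1 against wt at 24 h (0), it was 1 with DESeq2, protein-coding factors, no filter and only the groups compared. For KO#2 against wt at 24 h (0), it was 3 with library sizes alone and 1 with only the groups compared. For the KO#2 response (0), it was 2 with DESeq2 and 1 with library sizes alone, protein-coding factors, no filter, and GC-corrected offsets with the replicate block. The counts of KO#1 against wt at 0 h and of the KO#1 response, and leaving out each library in the comparisons with 0, gave 0 throughout. Library sizes alone moved all genes' median by -0.62, -0.79 and -0.03 between time points in wt, KO#1 and KO#2, and by 0.44 and 1.04 for KO#2 against wt at 0 h and 24 h. No called member changed sign, and 60 sign changes concerned values not called. Among them, with library sizes alone E2f4 was -0.17 and E2f6 -0.20 between time points in KO#1, and E2f1 was 0.55 and E2f4 0.50 for KO#2 against wt at 24 h. The cause was not tested, apart from the shift in the median that scaling itself makes.

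The libraries were not taken as paired by replicate number, since correlations of deviations ran from -0.26 to 0.59 over 45 same-numbered pairs (mean 0.05, against -0.03 over 90 others). Whether single pairs of groups share a batch by number was not tested. With the replicate block, 2 members were called between 24 h and 0 h in KO#1, where the count without it was 1. E2f6 was the member added, with an adjusted p of 0.0458. Depth limits the low members: E2f2, E2f6 and E2f7 rested on as few as 31, 28 and 32 counts in a library.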
